A study of Mus musculus with 47 samples.

Results

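Basal and luminal epithelial cells of the mouse mammary gland were compared in mid pregnancy, at day 14.5 (P14.5). The comparison rested on 5 of the 46 RNA-seq libraries with values: basal replicates 3 and 6, and luminal replicates 2, 3 and 6. All came from FVB/N mice, and each replicate was a separate sort of glands pooled from several mice. Cells not stained for lineage antigens (CD11b, CD45, Ly-6G/C, Ter-119, CD31 and CD140a) and carried CD24 were split by CD29 into a CD29-low gate, called luminal, and a CD29-high gate, called basal. Replicates 3 and 6 of the 2 cell types were sorted on the same days, all 5 libraries shared an RNA amplification batch and a sequencing lane, and basal replicate 2, left out by the authors for clustering with luminal samples, was not analysed here. The rest of the series held the same cell types from mice aged 10 weeks (W10) or 4 months (M4), and from pregnancy day 3.5 (P3.5), lactation days 3 and 10 (L3, L10), and 2 days (Id2) and 4 weeks (Iw4) of involution.

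Luminal cells line the ducts and alveoli of the gland and make milk, while basal cells lie beneath them against the basement membrane. Most basal cells are myoepithelial: they carry a smooth muscle apparatus and shorten when oxytocin reaches them, which pushes milk out of the alveoli. During pregnancy, progesterone and prolactin drive the growth of alveoli, and prolactin acts through JAK2 and STAT5, together with the factor ELF5, to switch on milk protein genes before birth.

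The luminal libraries held 14937202, 9519867 and 11889301 reads (replicates 2, 3 and 6) and the basal ones 4463977 and 5658476 (replicates 3 and 6). Values are CPM to which the authors applied a further scaling factor per library, so libraries do not sum to the same total. They summed to 922085 (basal replicate 3) to 1154133 (luminal replicate 2) at P14.5, and to 2909036 in a luminal library of L3. In luminal libraries of P14.5, 3 reads, the limit that a count of 0 allows, equal 0.232 to 0.295 CPM. In the basal ones they equal 0.494 to 0.62 CPM. Intervals and limits of this kind cover counting error only, since amplified reads are not independent molecules. Across the 17078 genes, which are not independent of each other, log2(CPM + 1) had a Pearson r of 0.952 between the basal libraries and of 0.971 to 0.984 among the luminal ones. Basal replicate 6 lay nearer to the luminal libraries (r of 0.876 to 0.896) than basal replicate 3 did (0.812 to 0.837). The 5 caseins and whey acidic protein, Wap, took 19.8%, 16.9% and 15.4% of luminal reads, 0.629% of the reads of basal replicate 3 and 5.25% of those of basal replicate 6, with 95% Wilson intervals of at most 0.0238 percentage points to either side. In basal libraries of other stages this share had a median of 0.0676% at P3.5, 2.06% at L3 and 4.48% at Id2. What placed basal replicate 6 between the cell types was not tested, so the main results are also given without each basal library.

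Each gene was tested with limma on log2(CPM + 1), with the spread estimated from all 46 libraries, and was called where the cell types differed by at least 2-fold at a Benjamini-Hochberg adjusted p under 0.01. Differences are basal minus luminal on that log2 scale, which understates the change of low genes, and are given with their standard error (SE), from 2 basal and 3 luminal libraries. Of 17078 genes, 1629 were called higher in basal cells (9.54%) and 579 higher in luminal cells (3.39%), so 73.8% of the 2208 called genes were higher in basal cells. The median difference was 2.77 among the former, -1.68 among the latter and -0.0003 over all genes. The basal and luminal libraries did not overlap in 9106 (53.3%) of all genes and in 2206 of the 2208 called genes. Genes named below for their large differences were picked from called genes without overlap, so that trait was set by the choice. Counts of called genes in each list below are to be read against the shares of all genes, 9.54% and 3.39%. In these bulk samples, fewer cells of a type and less RNA per cell cannot be told apart.

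The basal libraries differed in the size of the differences. Genes called higher in luminal cells had a median of -1.97 in basal replicate 3 and -1.31 in basal replicate 6, each against the luminal mean, and genes called higher in basal cells 3.02 and 2.49. Without basal replicate 3, 754 genes were called higher in basal and 53 higher in luminal cells. Of these 807 calls, 774 were among the 2208. Without basal replicate 6 the counts were 1482 and 591. A lone basal library is there assumed to vary like the other groups. Without luminal replicate 2, 326 genes were called higher in luminal cells, and without luminal replicate 6, 380.

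**Figure D1:**
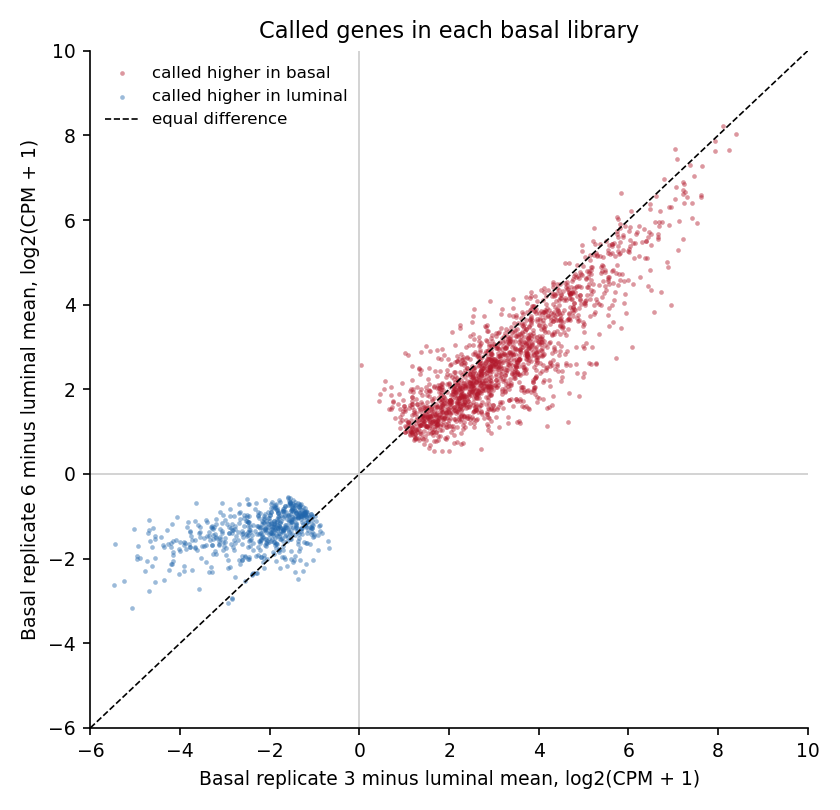
Difference of each called gene from the luminal mean at P14.5 on the log2(CPM + 1) scale, in basal replicate 3 (x axis) and basal replicate 6 (y axis), red for the 1629 genes called higher in basal cells and blue for the 579 called higher in luminal cells, with a dashed line where both libraries differ equally. Points of both colours lie mostly nearer to 0 on the axis of replicate 6, with medians of -1.31 against -1.97 for the blue points.

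The smooth muscle apparatus was higher in basal cells throughout: all 20 genes of the list were called, with a median difference of 4.75. Acta2, smooth muscle actin (ENSMUSG00000035783), read 8612 and 6631 CPM in basal replicates 3 and 6, and 56.9, 15.3 and 16.2 CPM in luminal replicates 2, 3 and 6. Among called genes without overlap, Acta2 had the largest difference, 8.22 ± 0.69 (SE; adjusted p = 3.69e-11). Myh11, the smooth muscle myosin heavy chain, read 5755 and 3845 CPM in basal against 58.0, 8.85 and 10.8 CPM in luminal libraries (7.95 ± 0.72, adjusted p = 2.2e-10). Luminal replicate 2 read above the other luminal libraries for both genes and still far below the basal ones. Mylk, the kinase that starts contraction by phosphorylating myosin light chain, read 3062 and 2398 CPM against 28.9, 9.34 and 10.8 CPM (7.46 ± 0.65, adjusted p = 7.78e-11). Cnn1, the actin-binding calponin, read 1123 and 914 CPM against 6.65, 3.05 and 2.11 CPM (7.79 ± 0.78, adjusted p = 1.58e-09). These genes were picked from those whose basal and luminal libraries did not overlap. Srf, the factor that binds CArG boxes in smooth muscle promoters, differed by 1.48 ± 0.35 (adjusted p = 0.002), near the lower end of the list. With basal replicate 3 left out, 15 of the 20 genes were called.

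CArG boxes were looked for in the 250 bases before each start site in RefSeq (GRCm38.p6), a build other than that of the deposited counts (mm9). A box was held by 482 of 32851 promoters (1.47%) and by 3 of the 17 promoters (17.6%) of 16 genes of the list, those of Myl9, Srf and Vcl. The promoters of Myl9, the myosin light chain that Mylk phosphorylates, and of Srf are shown 5′ to 3′ with the boxes in capitals, since Myl9 was among the most basal genes of the list and Srf is the factor that reads the box. The pattern reads the same on the other strand. A match is a description of the sequence and not a site shown to be bound.
Myl9 (chr2:156775214-156775463, plus strand): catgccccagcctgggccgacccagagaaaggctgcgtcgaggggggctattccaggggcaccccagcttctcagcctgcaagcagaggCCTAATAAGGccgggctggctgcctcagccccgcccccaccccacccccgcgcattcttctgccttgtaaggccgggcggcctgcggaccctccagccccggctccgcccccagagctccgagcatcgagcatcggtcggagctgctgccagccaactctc
Srf (chr17:46556163-46556412, minus strand): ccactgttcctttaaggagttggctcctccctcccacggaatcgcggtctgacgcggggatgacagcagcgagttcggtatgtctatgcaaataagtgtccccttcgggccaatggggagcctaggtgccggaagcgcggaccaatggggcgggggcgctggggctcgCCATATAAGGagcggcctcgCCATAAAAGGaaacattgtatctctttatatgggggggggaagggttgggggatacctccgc

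Myl9, whose box ends 152 bases before the start, read 1275 and 893 CPM in basal against 22.0, 4.03 and 4.47 CPM in luminal libraries, a difference of 6.96 ± 0.74 (adjusted p = 5.6e-09). Srf, with boxes that end 73 and 53 bases before the start, read 195 and 154 CPM against 73.2, 48.4 and 66.6 CPM. Both genes were higher in each basal library than in any luminal one. Genes of the list with no box in this window include Acta2 and Myh11, which says only that the letters are not within these 250 bases.

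**Figure D2:**
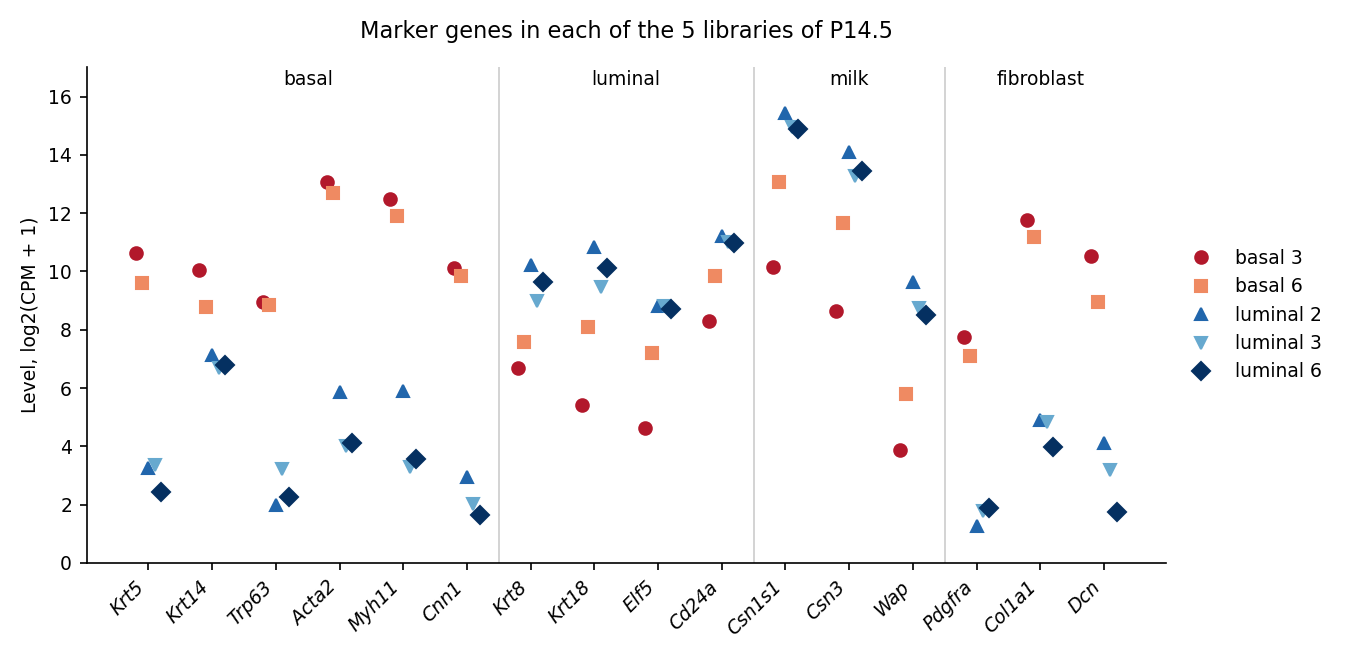
Level of 16 marker genes in each of the 5 libraries of P14.5 as log2(CPM + 1), with basal replicates in red (circle, replicate 3) and orange (square, replicate 6) and luminal replicates 2, 3 and 6 in blues. Basal and luminal libraries are apart in every gene shown, and basal replicate 6 lies between basal replicate 3 and the luminal libraries for the luminal and milk genes.

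Basal keratins and lineage factors were also higher in basal cells: 15 of 19 genes were called, none in the other direction, with a median of 4.16. Krt5, a keratin of basal epithelium (ENSMUSG00000061527), read 1606 and 779 CPM in basal and 8.58, 9.24 and 4.47 CPM in luminal libraries (7.11 ± 0.89, adjusted p = 1.51e-07). Trp63, the factor that maintains basal epithelium, read 500 and 464 CPM against 2.94, 8.36 and 3.80 CPM (6.43 ± 0.76, adjusted p = 5.07e-08). Cdh3, P-cadherin of the basal layer, read 233 and 193 CPM against 3.55, 1.97 and 2.45 CPM (5.89 ± 0.77, adjusted p = 3.67e-07). Each of these 3 genes stood far apart between the cell types, with basal replicate 3 the higher basal library. Krt14, the partner of Krt5 in keratin filaments, read 1060 and 434 CPM in basal and still 138, 102 and 110 CPM in luminal libraries. Its difference of 2.54 ± 0.72 (adjusted p = 0.0087) was smaller than that of Krt5, and without basal replicate 3 it was 1.90 with an adjusted p of 0.22. The adjusted p of Krt14 was 0.016, 0.027 and 0.026 without luminal replicate 2, 3 or 6. Sox9, a factor of progenitor cells in several epithelia, was among the 4 genes not called (0.09 ± 0.36, adjusted p = 0.9). The list had 12 called genes without basal replicate 3.

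Of 20 receptors and channels of contraction, 7 were called higher in basal cells and 1 in luminal cells, with a median of 1.80. Shares over all genes were 9.54% and 3.39%. Kcnmb1, the beta subunit of the calcium-activated potassium channel of smooth muscle, read 87.6 and 54.0 CPM in basal and 0.773, 0.0983 and 0 CPM in luminal libraries (5.80 ± 0.61, adjusted p = 4.81e-09). Ednra, an endothelin receptor, read 103 and 65.7 CPM against 3.09, 1.57 and 1.52 CPM (4.81 ± 0.72, adjusted p = 3.62e-06). Oxtr, the oxytocin receptor, read 485 and 518 CPM in basal and 80.7, 192 and 74.9 CPM in luminal libraries. The libraries of Oxtr did not overlap, but its difference of 2.24 ± 0.87 missed the threshold (adjusted p = 0.06). Orai1, a store-operated calcium channel, was the gene called in the other direction, at 12.8 and 33.8 CPM in basal against 117, 57.5 and 65.0 CPM in luminal libraries (-1.81 ± 0.48, adjusted p = 0.0047; 0.013 with edgeR). The difference of Orai1 was -1.15 with an adjusted p of 0.26 without basal replicate 3, without luminal replicate 2 its adjusted p was 0.037, and 4 genes of the list were called without basal replicate 3, all higher in basal cells.

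Basal cells read higher for the matrix they rest on. Of 28 laminins, other basement membrane proteins and integrins, 18 were called higher in basal cells and none in luminal cells (median 2.37). Col4a2, a chain of the collagen of basement membranes, read 1563 and 1474 CPM in basal and 66.7, 8.65 and 24.7 CPM in luminal libraries (5.89 ± 0.46, adjusted p = 8.56e-12). Col17a1, the hemidesmosome collagen that anchors keratinocytes, read 411 and 263 CPM against 2.70, 2.16 and 2.11 CPM (6.64 ± 0.85, adjusted p = 2.49e-07). The laminin genes Lama1, Lama3, Lamb1, Lamb2 and Lamc1 were called, with differences from 2.29 (Lamb2) to 5.42 (Lama3). Itgb1, which encodes the CD29 used to separate the gates, read 492 and 412 CPM against 302, 230 and 296 CPM. Its libraries did not overlap, but its difference of 0.71 ± 0.25 was under the 2-fold threshold (adjusted p = 0.033). With basal replicate 3 left out, 15 genes of this list were called.

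Interstitial matrix genes were higher in basal libraries as well, and so were markers of fibroblasts. Of 34 matrix proteins, proteases and inhibitors in the table, 21 were called higher in basal cells and none in luminal cells (median 2.74), and 15 genes were called without basal replicate 3. Col1a1, a chain of fibrillar collagen and the most abundant fibroblast marker, read 3507 and 2329 CPM in basal and 28.8, 27.4 and 14.6 CPM in luminal libraries (6.92 ± 1.30, adjusted p = 0.000125). All 12 fibroblast markers were called higher in basal cells, with a median of 5.65. Pdgfra, which encodes CD140a, read 214 and 136 CPM against 1.39, 2.46 and 2.70 CPM (5.78 ± 1.20, adjusted p = 0.00043). Dcn, the proteoglycan decorin, read 1494 and 495 CPM against 16.2, 8.06 and 2.36 CPM (6.74 ± 0.99, adjusted p = 2.99e-06). Basal replicate 3 was the higher basal library for all 3 genes, and no luminal library came near either. The antibody to CD140a in the lineage stain is listed in the methods as one to the human antigen, and its effect on mouse cells was not tested. Summed over the list, fibroblast markers reached 12349 and 6163 CPM in basal and 108, 86.7 and 42.6 CPM in luminal libraries, and no marker was at 0 in either basal library. In basal libraries of other stages the sum was 345 ± 83.1 CPM (SD, n = 3) at W10, 546 ± 242 CPM (n = 3) at P3.5, 2931 ± 3110 CPM (n = 3) at L3 and 29775 ± 39115 CPM (n = 3) at Id2. On basal replicate 6 alone, Pdgfra differed by 5.46 (adjusted p = 0.019), Col1a2 by 6.41 (adjusted p = 0.011), Col3a1 by 6.05 (adjusted p = 0.032), Lum had an adjusted p of 0.019, and 4 of the 12 markers were called. The part of fibroblast RNA in the matrix results was not tested.

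**Figure D3:**
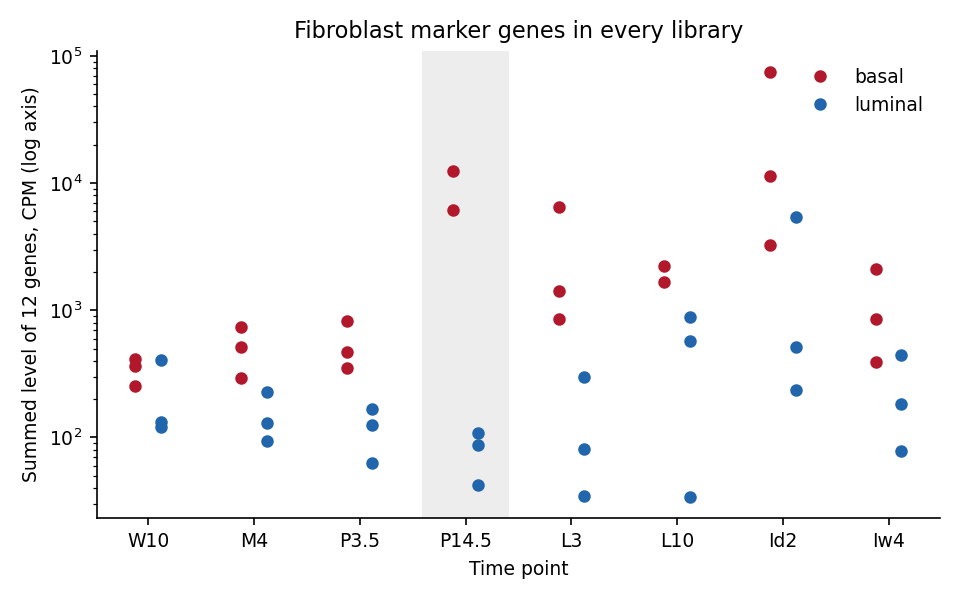
Summed level of 12 fibroblast marker genes in CPM (log axis) in every library by time point, basal libraries in red and luminal libraries in blue, with P14.5 shaded. The basal libraries of P14.5 stand at 12349 and 6163 CPM, above each basal library of W10, M4 and P3.5, and the luminal ones of P14.5 lie between 42.6 and 108 CPM.

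Among called genes without overlap, the 10 largest differences towards basal cells ran from 8.22 to 7.25. They were those of Acta2, Fmod, Myh11, Reln, Cnn1, Mylk, Il17b, Spon2, Vcan and Scn7a, of which Fmod, Reln, Il17b, Spon2 and Scn7a are on no list. The fibroblast markers, summed, were at 12349 and 6163 CPM in the same basal libraries, and their part in these differences was not tested. Fmod, the proteoglycan fibromodulin, read 651 and 712 CPM in basal and 2.32, 1.18 and 0.844 CPM in luminal libraries (8.17 ± 0.73, adjusted p = 1.23e-10). Reln, the secreted glycoprotein reelin, read 382 and 369 CPM against 0.850, 0.688 and 0.253 CPM (7.90 ± 0.62, adjusted p = 9e-12). Il17b, a cytokine of the IL-17 family, read 180 and 281 CPM against 0.541, 0.197 and 0.422 CPM (7.36 ± 0.58, adjusted p = 9e-12). Luminal libraries held 10 to 30 reads of Fmod, 3 to 11 of Reln and 2 to 7 of Il17b, and Fmod and Il17b were higher in basal replicate 6 than in basal replicate 3. Each of the 10 genes kept its call without either basal library and without each luminal one.

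Luminal keratins and lineage factors were higher in luminal cells by smaller amounts: 8 of 20 genes were called, all in that direction, with a median of -1.85. Krt18, a keratin of simple epithelium, read 41.7 and 271 CPM in basal and 1846, 712 and 1109 CPM in luminal libraries (-3.40 ± 0.60, adjusted p = 5.48e-05). Its partner Krt8 read 102 and 192 CPM against 1195, 510 and 788 CPM (-2.48 ± 0.49, adjusted p = 0.000227). Elf5, the factor of alveolar luminal cells, read 23.6 and 146 CPM against 451, 452 and 415 CPM (-2.87 ± 0.58, adjusted p = 0.000288). The libraries of these 3 genes did not overlap, and basal replicate 6 was the nearer basal library to the luminal ones. Cd24a, which encodes the CD24 used in the sort, read 316 and 925 CPM against 2395, 2071 and 2028 CPM (-2.00 ± 0.41, adjusted p = 0.000411). Kit and Cd14, surface markers of luminal progenitors, differed by -2.15 (adjusted p = 0.014) and -2.11 (adjusted p = 0.028), and the luminal factors Foxa1 and Gata3 by -2.05 (adjusted p = 0.043) and -0.45 (adjusted p = 0.33). No gene of the list was called without basal replicate 3. Krt18 was then at -2.06 (adjusted p = 0.052), Krt8 at -2.02 (adjusted p = 0.031), Krt19 at -1.47 (adjusted p = 0.22), Elf5 at -1.59 (adjusted p = 0.14) and Cd24a at -1.22 (adjusted p = 0.12). The median of the list was -2.53 in basal replicate 3 and -1.37 in basal replicate 6.

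Junction genes went both ways. Of 28 genes, 9 were called higher in luminal and 6 in basal cells, with a median of -0.79. Without basal replicate 3 the counts were 1 and 5, with edgeR 2 and 6, and with a pseudocount of 0.1 they were 4 and 6. Cldn7, a tight junction claudin, read 3.72 and 37.7 CPM in basal and 148, 77.5 and 117 CPM in luminal libraries (-3.04 ± 0.63, adjusted p = 0.000439), and Gjb6, a gap junction connexin, read 6.20 and 19.1 CPM against 97.1, 126 and 70.7 CPM (-3.00 ± 0.69, adjusted p = 0.0012). In the other direction, Cdh13, a cadherin held by a lipid anchor, read 170 and 96.0 CPM against 23.2, 0.983 and 4.22 CPM (4.35 ± 0.79, adjusted p = 6.84e-05), and Gja1, connexin 43, read 462 and 220 CPM against 45.1, 19.1 and 28.3 CPM (3.42 ± 0.71, adjusted p = 0.000404). The 2 connexins thus went in opposite directions, and libraries did not overlap in any of these 4 genes. Gja1 differed by 2.88 with an adjusted p of 0.036 when basal replicate 3 was left out.

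Milk protein genes were already abundant in luminal cells at P14.5, before lactation. Of 19 milk proteins and secretory products, 11 were called higher in luminal cells and 1 in basal cells, with a median of -3.05 (-4.21 in basal replicate 3 and -1.74 in basal replicate 6). STAT5, the factor through which prolactin acts, binds the pattern TTCNNNGAA, in which N is any base and which reads the same on the other strand. The pattern was held by 2306 of 32851 promoters (7.02%) and by 3 of the 17 promoters (17.6%) of 16 genes of the list. The promoters of the caseins Csn1s1 and Csn2 and of Glycam1, a mucin-like milk protein, are shown 5′ to 3′ from RefSeq (GRCm38.p6) because they hold it, in capitals, and because caseins carry most milk protein reads. The pattern ends 92, 85 and 137 bases before the start, and no binding was measured.
Csn1s1 (chr5:87665958-87666207, plus strand): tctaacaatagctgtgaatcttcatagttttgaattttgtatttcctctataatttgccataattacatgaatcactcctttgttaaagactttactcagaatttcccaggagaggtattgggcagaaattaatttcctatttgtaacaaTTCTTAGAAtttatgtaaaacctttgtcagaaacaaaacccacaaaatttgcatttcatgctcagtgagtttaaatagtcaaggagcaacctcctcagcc
Csn2 (chr5:87699426-87699675, minus strand): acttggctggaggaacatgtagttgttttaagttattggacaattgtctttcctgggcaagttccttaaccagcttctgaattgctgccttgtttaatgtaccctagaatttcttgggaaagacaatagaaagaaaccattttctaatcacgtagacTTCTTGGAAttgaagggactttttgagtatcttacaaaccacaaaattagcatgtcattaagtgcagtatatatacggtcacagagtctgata
Glycam1 (chr15:103565082-103565331, minus strand): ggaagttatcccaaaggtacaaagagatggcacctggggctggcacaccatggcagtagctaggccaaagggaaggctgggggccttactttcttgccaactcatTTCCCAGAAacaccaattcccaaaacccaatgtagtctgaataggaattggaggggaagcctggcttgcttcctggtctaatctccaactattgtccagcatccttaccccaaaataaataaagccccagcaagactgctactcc

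Csn1s1 read 1133 and 8684 CPM in basal and 44230, 31830 and 30670 CPM in luminal libraries, a difference of -3.48 ± 0.86 (adjusted p = 0.0025). Csn2, chosen here for its promoter, read 2584 and 24300 CPM against 103600, 70310 and 68910 CPM (-3.33 ± 0.94, adjusted p = 0.0086). For both caseins, basal replicate 6 lay between basal replicate 3 and the luminal libraries. Glycam1, at 401 and 4229 CPM against 19850, 11900 and 11930 CPM, differed by -3.44 ± 1.67 and was not called (adjusted p = 0.14). Wap read 13.8 and 54.8 CPM against 799, 432 and 365 CPM (-4.12 ± 1.17, adjusted p = 0.0086). Among called genes without overlap, this was the largest difference towards luminal cells. Spp1, the secreted phosphoprotein osteopontin, read 46.7 and 310 CPM against 2710, 1395 and 1557 CPM (-3.89 ± 1.00, adjusted p = 0.0038), and Cel, a lipase of milk, 8.06 and 33.1 CPM against 362, 191 and 181 CPM (-3.73 ± 0.81, adjusted p = 0.00069). The basal and luminal libraries were apart in all these genes, and basal replicate 6 was the higher basal one. The exception to the direction of the list was Pthlh, the parathyroid hormone-related protein, at 13.6 and 12.7 CPM in basal and 0.695, 0 and 0 CPM in luminal libraries (3.57 ± 0.40, adjusted p = 2.14e-08).

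These calls leaned on basal replicate 3. Without it, Pthlh alone of the list was called: Csn1s1 was at -2.01 (adjusted p = 0.25), Csn1s2a at -1.99 (adjusted p = 0.36), Csn3 at -1.94 (adjusted p = 0.28), Wap at -3.17 (adjusted p = 0.2), Spp1 at -2.54 (adjusted p = 0.22) and Cel at -2.77 (adjusted p = 0.083). Wap missed the threshold without any 1 of the 5 libraries, with adjusted p of 0.011 to 0.2. Without luminal replicate 2, 5 genes of the list were called higher in luminal cells, Csn1s1 had an adjusted p of 0.011, Csn3 of 0.015, Spp1 of 0.019 and Csn1s2a of 0.029. Csn1s2a had an adjusted p of 0.019 without luminal replicate 3 and of 0.019 without luminal replicate 6. With edgeR's quasi-likelihood test on the recovered reads, 3 genes of the list were called higher in luminal cells, and the adjusted p was 0.026 for Csn1s1, 0.056 for Csn1s2a and for Wap, 0.028 for Csn3 and 0.02 for Spp1.

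Among called genes without overlap, 3 of the 10 largest differences towards luminal cells lay outside the lists. They were those of Lao1, an amino acid oxidase of milk, Pigr, the receptor that carries IgA into milk, and Muc20, a membrane mucin. Lao1 read 7.44 and 60.1 CPM in basal and 554, 274 and 344 CPM in luminal libraries (-4.05 ± 1.10, adjusted p = 0.0061). Pigr read 19.6 and 115 CPM against 762, 442 and 544 CPM (-3.54 ± 0.88, adjusted p = 0.0027). In both genes basal replicate 3 was the lower basal library and no libraries overlapped. Muc20 differed by -3.56 ± 0.67 (adjusted p = 0.000121), with 15.6% of its exon bases shared with another gene, whose reads could not be told apart. On basal replicate 6 alone, Lao1 was at -2.62 (adjusted p = 0.26), Pigr at -2.30 (adjusted p = 0.21) and Muc20 at -1.66 (adjusted p = 0.14). With edgeR the adjusted p was 0.045, 0.027 and 0.012, so none of the 3 was called. Without luminal replicate 2 the adjusted p was 0.026 for Lao1 and 0.013 for Pigr, and Lao1 had an adjusted p of 0.011 without luminal replicate 3 and 0.016 without luminal replicate 6.

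Of 32 genes of milk lipid synthesis and secretion, 16 were called higher in luminal cells (10 with edgeR) and 1 in basal cells (median -1.43). Plin2, the coat protein of milk lipid droplets, read 91.1 and 439 CPM in basal and 1949, 1118 and 1553 CPM in luminal libraries (-2.90 ± 0.40, adjusted p = 8.82e-07). Fasn, the fatty acid synthase, read 162 and 738 CPM against 2430, 1328 and 2259 CPM (-2.48 ± 0.54, adjusted p = 0.000672), and Thrsp, which raises medium-chain lipid synthesis in the gland, 22.9 and 99.9 CPM against 475, 444 and 409 CPM (-3.17 ± 0.83, adjusted p = 0.0046; 0.03 with edgeR). Libraries did not overlap in these 3 genes. Scd2, a desaturase, went the other way at 120 and 73.6 CPM against 32.5, 38.3 and 44.4 CPM (1.28 ± 0.33, adjusted p = 0.0041), while its paralog Scd1 differed by -2.66 ± 0.53 (adjusted p = 0.000282). Without basal replicate 3, 1 gene was called, higher in luminal cells, and Thrsp was at -2.13 (adjusted p = 0.22) and Scd2 at 0.93 (adjusted p = 0.18). Without luminal replicate 2, 10 were called higher in luminal cells, and the adjusted p was 0.015 for Thrsp and 0.021 for Scd2. It was 0.013 for Thrsp and 0.012 for Scd2 without luminal replicate 3, and 0.012 for Thrsp without luminal replicate 6.

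Among 26 nutrient, ion and water transporters, 6 were called higher in luminal and 1 in basal cells (median -0.80), and 1 and 1 with edgeR. Over all 17078 genes, 3.39% were called higher in luminal and 9.54% in basal cells, and edgeR called 348 and 1564 genes. Folr1, a folate receptor, read 3.31 and 31.1 CPM in basal and 159, 77.6 and 94.1 CPM in luminal libraries (-3.17 ± 0.80, adjusted p = 0.0034), and Slc34a2, a phosphate transporter, 2.89 and 50.4 CPM against 154, 102 and 124 CPM (-3.15 ± 0.79, adjusted p = 0.003). The taurine transporter Slc6a6 was the exception, at 543 and 326 CPM against 109, 91.4 and 117 CPM (1.99 ± 0.40, adjusted p = 0.000281). Libraries did not overlap in these genes. With edgeR the adjusted p was 0.039 for Folr1 and 0.057 for Slc34a2, and with DESeq2 0.013 and 0.028. No transporter was called without basal replicate 3, with Folr1 at -1.72 (adjusted p = 0.31), Slc34a2 at -1.29 (adjusted p = 0.43) and Slc6a6 at 1.62 (adjusted p = 0.035). Without luminal replicate 2 the counts were 1 and 1, with an adjusted p of 0.019 for Folr1 and 0.013 for Slc34a2, and without basal replicate 6 they were 3 higher in luminal and 1 in basal cells, and 4 genes in all were called without luminal replicate 6.

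**Figure D4:**
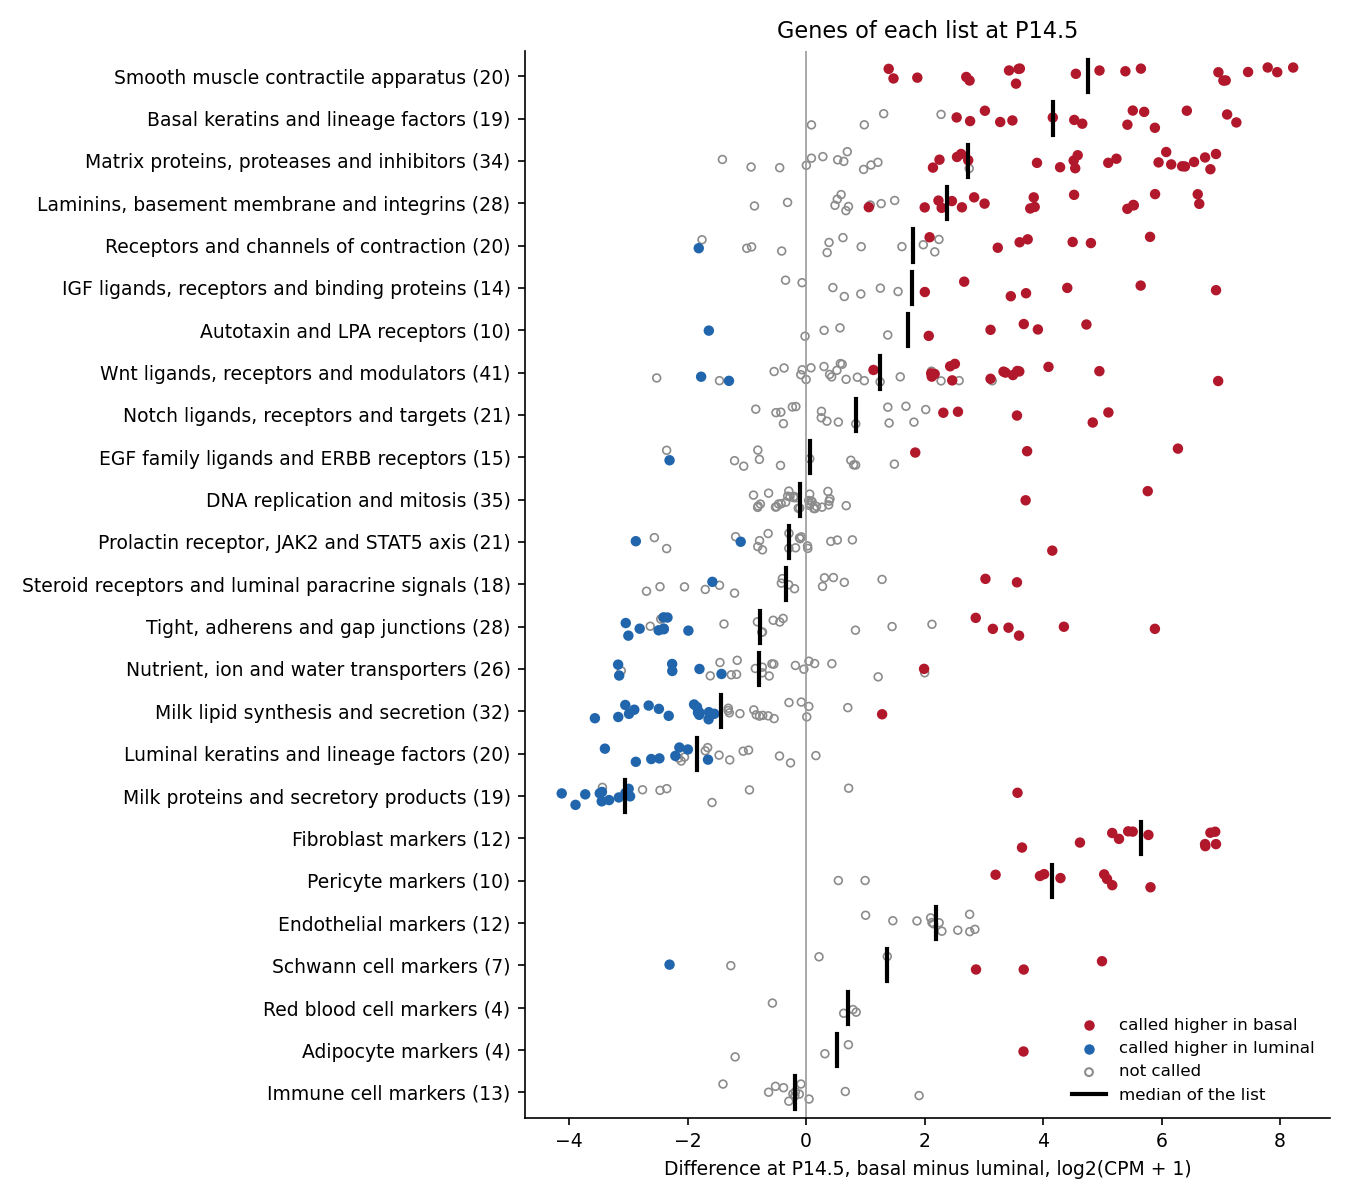
Difference between basal and luminal cells at P14.5 (basal minus luminal, log2(CPM + 1)) of each gene of 25 lists, with the number of genes in brackets, red for genes called higher in basal cells, blue for those called higher in luminal cells, open for those not called, and a black bar at the median of the list. Contractile genes have a median of 4.75, milk proteins of -3.05, and DNA replication and mitosis of -0.11.

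Of 21 genes of the prolactin axis, 2 were called higher in luminal cells, Elf5 and Xbp1, and 1 higher in basal cells (median -0.29), against 3.39% and 9.54% of all genes. Prlr, the prolactin receptor, read 24.0 and 94.7 CPM in basal and 353, 250 and 269 CPM in luminal libraries, a difference of -2.56 ± 0.90 that was not called (adjusted p = 0.035). Stat5a read 40.3 and 41.5 CPM against 93.6, 109 and 83.1 CPM (-1.19 ± 0.37, adjusted p = 0.018), and Jak2 differed by 0.02 ± 0.31 (adjusted p = 0.97). Socs3, a feedback inhibitor of cytokine receptors, was the gene higher in basal cells, at 596 and 445 CPM against 56.6, 21.0 and 18.1 CPM (4.16 ± 0.45, adjusted p = 8.35e-09), with no overlap. Xbp1, a factor of secretory cells, differed by -1.10 ± 0.27 (adjusted p = 0.0027), with -0.98 and an adjusted p of 0.075 without basal replicate 3, when 1 gene of the list was called, and an adjusted p of 0.015 without luminal replicate 3.

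Of 18 steroid receptors and luminal paracrine genes, 2 were called higher in basal and 1 in luminal cells (median -0.35), shares near those of all genes (9.54% and 3.39%). Vdr, the vitamin D receptor, read 105 and 181 CPM in basal and 567, 341 and 367 CPM in luminal libraries (-1.58 ± 0.33, adjusted p = 0.000395), with no overlap. Fgf1, a fibroblast growth factor, read 36.1 and 14.5 CPM against 2.40, 0.983 and 2.78 CPM and differed by 3.03 ± 0.63 (adjusted p = 0.000414). Esr1 and Pgr, the oestrogen and progesterone receptors, overlapped between the cell types, with Esr1 at 19.0 and 12.3 CPM against 21.2, 12.9 and 20.2 CPM (-0.20 ± 0.40, adjusted p = 0.79). Tnfsf11, the RANK ligand through which progesterone acts on neighbouring cells, was at 0.413 and 4.94 CPM against 6.34, 18.0 and 28.4 CPM and was not called (-2.47 ± 0.77, adjusted p = 0.018). Vdr was at -1.19 (adjusted p = 0.062) and Fgf1 at 2.40 (adjusted p = 0.05) without basal replicate 3, which left 1 call, and 5 genes were called without basal replicate 6.

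Of 35 DNA replication and mitosis genes, 2 were called, both higher in basal cells, where 9.54% of all genes were called higher in basal and 3.39% in luminal cells. The median difference of the list was -0.11, against -0.0003 over all genes. A gene that was not called, here or elsewhere, may still differ between the cell types. Mki67, a marker of cycling cells, read 130 and 94.8 CPM in basal and 152, 169 and 129 CPM in luminal libraries (-0.42 ± 0.87, adjusted p = 0.79), and the groups overlapped. With a standard error of this size, equal levels are not shown. The called genes were Ccnd2, a D-type cyclin, at 289 and 243 CPM against 6.95, 2.65 and 3.04 CPM (5.77 ± 0.61, adjusted p = 5.86e-09), and Cdkn1c, an inhibitor of cyclin-dependent kinases, at 40.7 and 44.4 CPM against 3.94, 1.08 and 2.62 CPM (3.71 ± 0.48, adjusted p = 3.26e-07).

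Signalling genes were counted by family. Of 41 Wnt genes in the table, 16 were called higher in basal and 2 in luminal cells (median 1.25), and 6 and 0 without basal replicate 3. Wif1, a secreted inhibitor that binds Wnt ligands, read 200 and 131 CPM in basal and 0.386, 0.393 and 0.169 CPM in luminal libraries (6.96 ± 0.52, adjusted p = 3.87e-12). Fzd7, a Wnt receptor, read 299.7 and 286 CPM against 14.4, 32.7 and 26.5 CPM (3.60 ± 0.50, adjusted p = 1.13e-06), and Nkd1, an inhibitor inside the cell, 55.6 and 40.8 CPM against 0.618, 0.197 and 1.01 CPM (4.95 ± 0.55, adjusted p = 1.57e-08). Among ligands, Wnt10a, Wnt6, Wnt5a and Wnt11 were called higher in basal cells, by 3.36, 3.33, 3.11 and 2.17, while Wnt5b was higher in luminal cells at 34.5, 27.4 and 20.9 CPM against 6.20 and 8.39 CPM in basal libraries (-1.77 ± 0.38, adjusted p = 0.000526). The receptor Fzd5 was the other exception (-1.30 ± 0.38, adjusted p = 0.01; 0.029 with edgeR and 0.025 with DESeq2), with -0.67 and an adjusted p of 0.43 without basal replicate 3 and of 0.013 to 0.041 without each luminal library. Wnt5b was at -1.58 (adjusted p = 0.03) without basal replicate 3. Of the nuclear factors of the pathway, Tcf7 read 41.3 and 64.5 CPM against 15.6, 8.26 and 10.5 CPM (2.12 ± 0.60, adjusted p = 0.0086; 0.016 with edgeR) and had an adjusted p of 0.01 to 0.094 without any 1 library, and Lef1 read 1.86 and 0 CPM against 0.309, 0 and 0.506 CPM, where no difference was detectable at this depth (adjusted p = 0.42).

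Among insulin-like growth factor genes, 7 of 14 were called higher in basal cells and none in luminal cells (median 1.78), 5 without basal replicate 3. Binding proteins hold the ligands outside the cell. Fibroblast markers summed to 12349 and 6163 CPM in the basal libraries, and their part in the results of this list was not tested. Igfbp5 read 4652 and 5686 CPM in basal and 3501, 2901 and 3502 CPM in luminal libraries and was not called (0.65 ± 0.51, adjusted p = 0.41). Igfbp2 read 318 and 187 CPM in basal and 1.16, 1.18 and 0.759 CPM in luminal libraries (6.92 ± 0.86, adjusted p = 1.48e-07), and Igfbp3 read 319 and 100.4 CPM against 5.49, 2.56 and 1.01 CPM (5.65 ± 0.58, adjusted p = 2.5e-09). Igf1r, the receptor, read 89.7 and 111 CPM against 34.5, 16.6 and 24.5 CPM (2.00 ± 0.43, adjusted p = 0.000627; 1.85 with an adjusted p of 0.014 without basal replicate 6). Insr, the insulin receptor, read 154 and 142 CPM against 115, 98.2 and 110 CPM, close together and not called (0.45 ± 0.48, adjusted p = 0.57). Grb10, an adaptor that dampens both receptors, read 72.3 and 39.7 CPM against 26.2, 20.1 and 19.9 CPM (1.25 ± 0.46, adjusted p = 0.044). The ligand Igf1 differed by 3.71 ± 1.02 (adjusted p = 0.0067), with an adjusted p of 0.23 without basal replicate 3 and of 0.011 to 0.023 without each luminal library.

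Notch ligands were higher in basal cells: 5 of 21 genes of the family were called, none towards luminal cells (median 0.84), and 3 without basal replicate 3. Dll1 read 71.7 and 67.2 CPM in basal and 1.93, 0.295 and 1.27 CPM in luminal libraries (5.10 ± 0.56, adjusted p = 1.19e-08), and Jag2 read 113 and 96.8 CPM against 4.10, 2.26 and 2.03 CPM (4.84 ± 0.66, adjusted p = 9.07e-07). Jag1 and Dll4 were called as well (3.56 and 2.32). Pericyte and endothelial markers, given below, had median differences of 4.15 and 2.20, and their part in the results of this list was not tested. Over all genes, 9.54% were called higher in basal and 3.39% in luminal cells. The receptor Notch1 was not called (-0.23 ± 0.42, adjusted p = 0.76), and its libraries overlapped. Heyl, a target factor, differed by 2.56 ± 0.65 (adjusted p = 0.0032), by 1.97 with an adjusted p of 0.036 without luminal replicate 3 and by 2.19 with an adjusted p of 0.097 without basal replicate 3.

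In the epidermal growth factor family, 3 of 15 genes were called higher in basal and 1 in luminal cells (median 0.06), against 9.54% and 3.39% of all genes. Nrg1, the neuregulin ligand, read 170 and 108 CPM in basal and 0.927, 0.688 and 0.675 CPM in luminal libraries (6.28 ± 0.72, adjusted p = 2.78e-08). Erbb3, a receptor of neuregulins, read 25.8 and 80.8 CPM against 260.3, 189 and 249 CPM (-2.31 ± 0.60, adjusted p = 0.0046). Libraries overlapped in neither gene, but with edgeR Erbb3 was not called (-2.13, adjusted p = 0.02), which left no gene of the family called higher in luminal cells. The ligands Ereg and Nrg2 differed by 3.73 ± 0.91 (adjusted p = 0.0023) and 1.84 ± 0.42 (adjusted p = 0.0013). With 1 gene of the family called without basal replicate 3, Erbb3 was then at -1.50 (adjusted p = 0.24), Ereg at 3.65 (adjusted p = 0.042) and Nrg2 at 1.65 (adjusted p = 0.047). Erbb3 had an adjusted p of 0.017 without luminal replicate 2 and of 0.017 without luminal replicate 6, and Ereg of 0.013 without luminal replicate 3 and of 0.016 without basal replicate 6.

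Of 10 genes of lysophosphatidic acid (LPA) signalling, 5 were called higher in basal and 1 in luminal cells (median 1.72), and 2 and 0 without basal replicate 3. Enpp2, the secreted enzyme autotaxin that makes LPA, read 94.6 and 87.2 CPM in basal and 2.47, 1.67 and 3.46 CPM in luminal libraries (4.73 ± 1.06, adjusted p = 0.000963; adjusted p = 0.024 without basal replicate 3). The receptor Lpar1 read 27.5 and 15.1 CPM against 0.695, 0.590 and 0.759 CPM (3.67 ± 0.79, adjusted p = 0.000631; adjusted p = 0.035 without basal replicate 3). Both genes were clearly apart between the basal and luminal libraries. Fibroblast markers summed to 12349 and 6163 CPM in these basal libraries, and their part in the results of this list was not tested. The receptor Lpar3 read 1.24 and 0.165 CPM against 0.0773, 0.0983 and 0.0844 CPM, with basal replicate 6 under the level of 3 reads, and was not called (0.57 ± 0.35, adjusted p = 0.26). The phosphatases that break LPA down split, with Plpp3 higher in basal cells by 3.91 ± 0.38 (adjusted p = 1.09e-09) and Plpp2 higher in luminal cells (-1.64 ± 0.41, adjusted p = 0.0028; -1.12 with an adjusted p of 0.18 without basal replicate 3 and an adjusted p of 0.022 without luminal replicate 2).

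Markers of other cell types were read beside these results. Of 10 pericyte markers, 8 were called higher in basal libraries (median 4.15), and the list summed to 1580 and 1417 CPM in basal and 315, 109 and 161 CPM in luminal libraries. Rgs5, the most abundant of them, read 798 and 753 CPM against 131, 11.3 and 37.3 CPM (4.29 ± 0.75, adjusted p = 4.1e-05). Pericytes and myoepithelial cells both carry a contractile apparatus, and the part of pericyte RNA in the contractile results was not tested. Endothelial markers summed to 1059 and 425 CPM in basal and 425, 44.5 and 108 CPM in luminal libraries, and none of 12 was called (median 2.20). With luminal replicate 2, the highest luminal library, left out, 4 of them were called higher in basal cells. With the sort as a replicate block, 2 were. Cdh5, the most abundant, read 201 and 142 CPM against 103.5, 7.18 and 17.5 CPM.

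None of 13 immune cell markers was called (median -0.19), and the list summed to 238 and 207 CPM in basal and 446, 153 and 225 CPM in luminal libraries, with Cd74 the most abundant. Of the depletion antigens, Ptprc (CD45) read 3.93 and 0.329 CPM against 5.49, 1.08 and 3.63 CPM, and Itgam (CD11b) 1.86 and 0.823 CPM against 4.71, 0.295 and 0.928 CPM, with overlap in both. Their differences of -0.63 ± 0.78 and -0.09 ± 0.66 turned positive without basal replicate 6 (0.31 and 0.24), and that of Itgam also without luminal replicate 2 (0.53). Itgam shares 68.7% of its exon bases with another gene. Ly6c1, a gene of the Ly-6C antigen, read 31.0 and 6.58 CPM against 7.88, 1.18 and 2.70 CPM (1.91 ± 0.69, adjusted p = 0.041), with overlap, and was called without basal replicate 6 (2.94, adjusted p = 0.0095). Pecam1 (CD31) read 173 and 100.7 CPM against 70.4, 4.23 and 15.9 CPM (2.85 ± 1.08, adjusted p = 0.054). For the marker lists that follow, shares over all genes were 9.54% higher in basal and 3.39% higher in luminal cells. Of 7 Schwann cell markers, 3 were called higher in basal cells, among them Pmp22 and Ngfr, and 1 in luminal cells, Erbb3, and 2 were called without basal replicate 3. Of 4 adipocyte markers in the table, Plin4 was called higher in basal cells (3.66 ± 0.69, adjusted p = 0.000116; adjusted p = 0.018 without basal replicate 3), and none of 4 red blood cell markers was called.

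The difference between the cell types at P14.5 was then tested against the mean difference of the other 7 time points. P3.5 alone of the 7 shared the amplification batch of P14.5 and none shared its lane, so stage cannot be told apart from batch and lane. The difference was larger towards basal cells in 13 genes (0.0761%) and towards luminal cells in 1 gene (0.00586%), with an unadjusted p under 0.05 in 1822 genes. edgeR called 6 genes and DESeq2 85, and with the sort as a replicate block limma called 37 (35 and 2). Left out singly, the P14.5 libraries gave 4 to 21 called genes: 8 without luminal replicate 2, 4 without luminal replicate 3, 6 without luminal replicate 6, 9 without basal replicate 3 and 21 without basal replicate 6. Of the 14 genes, 12 were also called between the cell types at P14.5.

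Fgf12, a fibroblast growth factor homologue that stays inside the cell (ENSMUSG00000022523), kept its call without each of the 5 libraries. It read 10.1 and 9.55 CPM in the basal libraries of P14.5 and 0 in the luminal ones, so that its basal mean was at least 33.3-fold above the level of 3 reads in a luminal library. Basal means at the other time points ran from 0 (L10) to 1.53 CPM (Iw4). The difference of differences was 3.31 ± 0.46 (adjusted p = 0.000226). Kera, the cornea and tendon proteoglycan keratocan, read 2.48 and 3.29 CPM in basal and 0 in luminal libraries, at least 9.78-fold above the same level, and kept its call without 4 of 5 libraries (1.88 ± 0.29, adjusted p = 0.00061). In both genes, P14.5 basal libraries stood above the basal means of all other stages.

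Fgfr2, a receptor of fibroblast growth factors, differed through its luminal level. It read 24.2, 9.44 and 13.3 CPM in the luminal libraries of P14.5, against luminal means of 87.5 CPM (Id2) to 503 CPM (W10) elsewhere, while basal cells stood at 197 and 145 CPM. The cell types differed by 3.45 ± 0.47 at P14.5 and the difference of differences was 3.35 ± 0.50 (adjusted p = 0.00061), which held without 4 of 5 libraries. Clca3a2, a member of the family of chloride channel accessory proteins, read 70.6, 39.6 and 21.3 CPM in luminal libraries of P14.5, with luminal means of 218 to 2966 CPM at other stages (3.65 ± 0.59, adjusted p = 0.0012; held without 2 of 5). Its paralog Clca3a1, whose reads may be split with it, was at 3.76 (adjusted p = 0.0049) and lost its call whichever of the 5 libraries was left out (adjusted p of 0.012 to 0.072). The low luminal level of both genes at P14.5 was seen in all 3 luminal libraries.

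Rgs8, a regulator of G protein signalling (ENSMUSG00000042671), was the gene that leaned towards luminal cells. Its luminal libraries of P14.5 read 12.3, 42.2 and 13.8 CPM, against luminal means of 0 to 6.31 CPM elsewhere, and its basal libraries 1.86 and 1.65 CPM. A luminal library of L10, at 14.2 CPM, was above the lower 2 of P14.5. The difference of differences was -2.44 ± 0.45 (adjusted p = 0.0061), and it held without 2 of 5 libraries (adjusted p of 0.0039 to 0.087). Between the cell types at P14.5, Rgs8 was called with limma (-2.89, adjusted p = 3.15e-06) and not with edgeR (adjusted p = 0.044) or DESeq2 (adjusted p = 0.057).

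Apod, the lipid carrier apolipoprotein D, read 1015 and 150 CPM in basal and 42.9, 9.24 and 1.69 CPM in luminal libraries, with a wide spread within each cell type. In luminal cells it was at 2224 CPM at L3 and 1791 CPM at L10, so the order of the cell types was the opposite there. The difference of differences was 6.64 ± 1.18 (adjusted p = 0.0049), from 5.27 to 8.01 with each library left out, and held without 2 of 5. Sfrp2, a secreted Wnt modulator, read 58.2 and 25.5 CPM against 6.03, 1.47 and 1.52 CPM (4.98 ± 0.79, adjusted p = 0.000962, held without 3 of 5). Fibroblast markers as a list had a median difference of differences of 3.44 against -0.0115 over all genes, with none of the 12 called. In basal replicate 6 of Id2, where these markers summed to 74702 CPM, Sfrp2 read 171, Apod 289, Scara5 26.7 and Kera 1.62 CPM. Basal replicates 2 and 4 of Id2, at 3288 and 11335 CPM, read at most 10.9, 43.7, 5.00 and 0.312 CPM. The part of fibroblast RNA in the results for Apod, Sfrp2, Scara5 and Kera was not tested. Scara5 (4.50), Alcam (2.88) and Nckap5 (2.86), with Gm14224 (1.66), lost the call whichever library was left out, and Gm10800 (2.67) and Adam5 (1.70) kept it without 1 of 5.

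**Figure D5:**
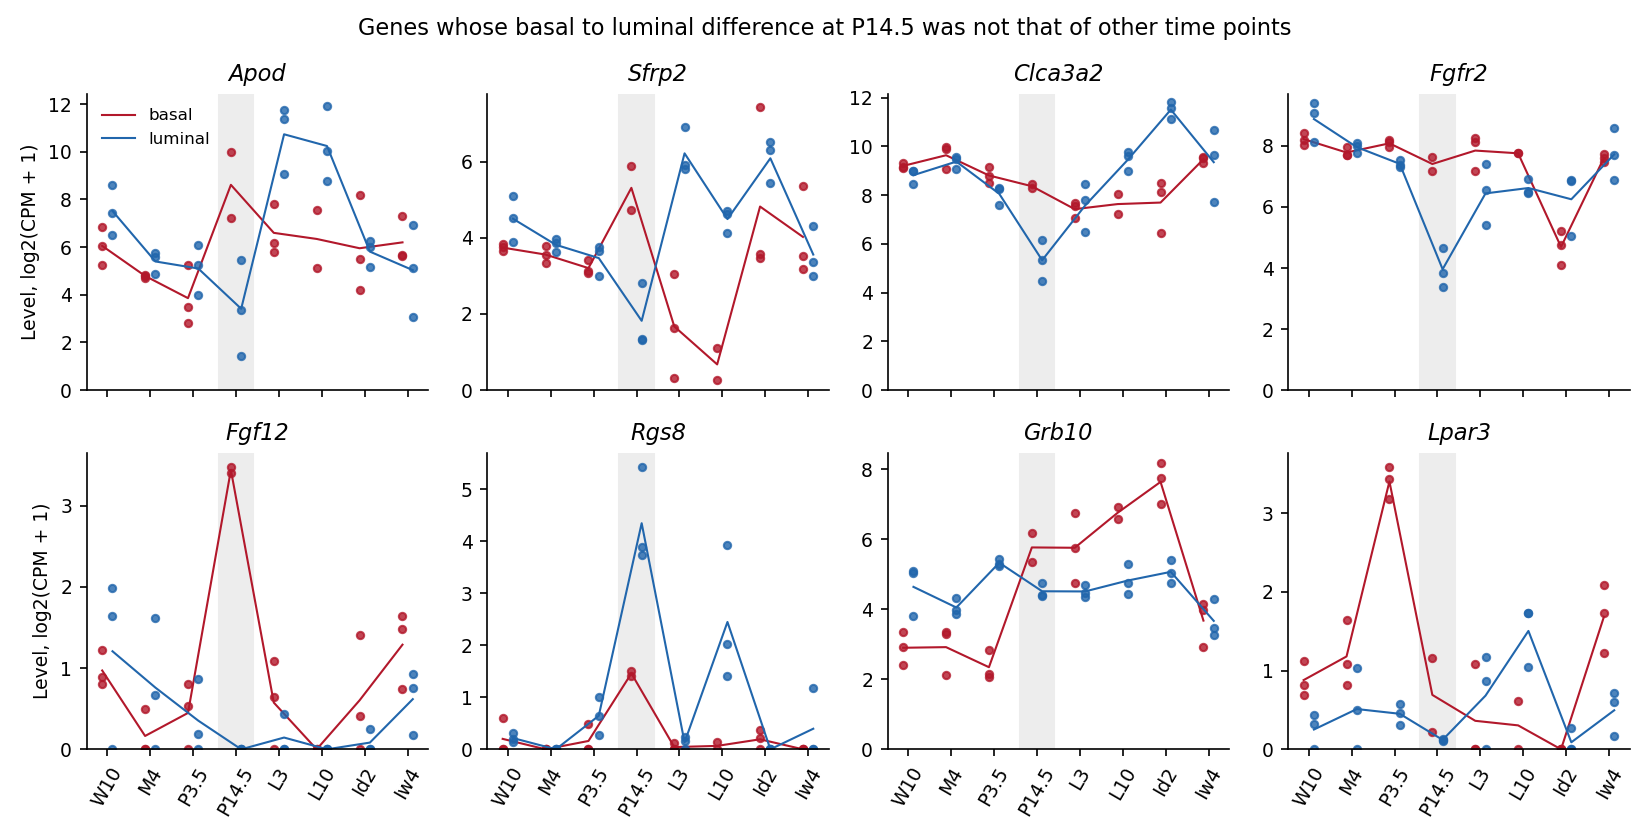
Level of 8 genes as log2(CPM + 1) in every library (points) and mean (lines) of basal cells (red) and luminal cells (blue) at 8 time points, with P14.5 shaded. Fgf12 is at 10.1 and 9.55 CPM in basal libraries of P14.5 and at 0 to 2.94 CPM in all other libraries, Fgfr2 and Clca3a2 are low in luminal cells of P14.5, and the basal mean of Lpar3 is 9.65 CPM at P3.5 and 0.702 CPM at P14.5.

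Against P3.5, the nearest earlier stage, the difference between the cell types had shifted towards basal cells in 21 genes (0.123%) and towards luminal cells in 12 (0.0703%), with 2180 genes at an unadjusted p under 0.05, 12 genes called by edgeR and 109 by DESeq2. With the sort as a block the counts were 68 and 28. They fell from 33 genes to 15 without luminal replicate 3, 16 without basal replicate 3 and 14 without luminal replicate 6. Grb10 shifted towards basal cells, where its mean was 4.24 ± 1.64 CPM (SD, n = 3) at P3.5 and 56.0 ± 23.1 CPM (n = 2) at P14.5, with luminal means of 39.4 and 22.1 CPM. The order of the means turned, and the difference of differences was 4.24 (adjusted p = 0.000174). At P14.5 itself, however, Grb10 was not called between the cell types (1.25 ± 0.46, adjusted p = 0.044). That difference was 0.83 without basal replicate 3. Lpar3 went the other way, with basal means of 9.65 CPM at P3.5 and 0.702 CPM at P14.5 (-2.38, adjusted p = 0.0071). Tbx3, a factor of mammary placode and luminal cells, was the gene of the basal list that shifted (3.42, adjusted p = 0.0022), and it read 74.4 and 50.04 CPM in basal and 8.73, 4.72 and 12.6 CPM in luminal libraries of P14.5, against luminal means of 55.5 CPM at P3.5. P3.5 and P14.5 shared an amplification batch but not a lane, so stage and lane cannot be told apart.

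Against L3, after birth, 66 genes had shifted towards basal cells at P14.5 (0.386%) and 54 towards luminal cells (0.316%), with 2891 genes at an unadjusted p under 0.05, 43 genes called by edgeR and 263 by DESeq2. With the sort as a block the counts were 170 and 144. Of 120 genes, the count was 73 without luminal replicate 2, 72 without basal replicate 3, 48 without luminal replicate 6 and 71 without basal replicate 6. Wif1 had basal means of 165 ± 48.9 CPM (SD, n = 2) at P14.5 and 18.8 ± 9.58 CPM (n = 3) at L3 (difference of differences 3.75, adjusted p = 0.0023). Igfbp3 had basal means of 210 and 92.9 CPM and luminal means of 3.02 and 25.6 CPM (3.70, adjusted p = 0.0059). Scd2 stood at luminal means of 38.4 CPM at P14.5 and 349 CPM at L3, with basal means of 97.0 and 114 CPM. Its means thus changed order (difference of differences 2.98, adjusted p = 0.00022). Sfrp2 had luminal means of 3.01 and 78.1 CPM and basal means of 41.9 and 3.22 CPM (8.04, adjusted p = 5.27e-06). Apod gave 9.34 (adjusted p = 0.000389). L3 libraries belonged to another amplification batch and another lane, so stage cannot be told apart from batch or lane in this comparison.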

How the data were processed

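RNA from sorted cells was amplified (NuGEN Ovation V2) and sequenced by the authors on an Illumina HiSeq, reads were aligned to mm9 with GSNAP and counted per gene with HTSeq. The deposited values are a normalised signal per gene, CPM on library sizes that the authors adjusted with a scaling factor in edgeR. The authors had removed genes under 1 CPM in 3 samples and very high genes of low variability. The values gave whole reads in 100% of cases (within 0.1 read), and edgeR run on these reads called 1564 genes higher in basal and 348 in luminal cells. Counting is not stated to use strand, so reads of overlapping and antisense genes could not be told apart.

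With limma 3.58.1 (R 4.3.3), log2(CPM + 1) of 17078 genes was modelled over all 46 libraries with values, 1 mean per condition (16 in all) and a mean-variance trend. Genes were called at a fold of 2 and a Benjamini-Hochberg adjusted p under 0.01 over all genes. Fits were tested on simulated data, and a gene that was not called is not shown to be equal. Replicates are separate sorts of pooled mice. The P14.5 libraries named replicate 6, after their code, are replicate 5 in their titles. Same-numbered samples of a time point have the same sort date in the labels and were taken as 1 sort, and deviations from the group means were correlated in 21 of 22 pairs above 0 (median r of 0.250, with -0.005 and 0.095 at P14.5, consensus 0.179), so the sort was used as a replicate block in an alternative. Alternatives were a pseudocount of 0.1, median-ratio rescaling, a mean of at least 5 CPM, edgeR 4.0.16, DESeq2 1.42.0, that block, other sets of libraries, genes that vary across conditions, an FDR of 0.05 and each P14.5 library left out. No column of values went unmapped (0).

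Of each list, up to 4 called genes with the largest difference were named, where the cell types did not overlap at P14.5. The 10 largest differences each way were also taken from called genes without overlap. Exceptions to a list's direction and up to 6 differences of differences each way were named as well. So were sorting markers, depletion antigens and 12 genes that the study discusses. Other members are named as examples of a list, chosen after their values were seen. The comparison and the lists were chosen with earlier results of these data known. Of the gene identifiers, 16897 had a symbol and 181 did not. Promoters came from RefSeq (GRCm38.p6). Some named genes are not reported here.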

Additional observations from a re-analysis of the deposited data

Results flagged for a closer look

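These results were picked out because a test of the difference itself found the basal to luminal difference at P14.5 to be unlike that of other time points (limma on log2(CPM + 1), Benjamini-Hochberg adjusted p under 0.01, fold of at least 2). Positive values lean towards basal cells at P14.5.

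Against the mean of the other 7 time points, the values were 6.64 for Apod, 4.98 for Sfrp2, 4.50 for Scara5 and 3.76 for Clca3a1. Clca3a2 was at 3.65, Fgfr2 at 3.35, Fgf12 at 3.31 and Alcam at 2.88. Nckap5 was at 2.86, Gm10800 at 2.67, Kera at 1.88, Adam5 at 1.70 and Gm14224 at 1.66, and Rgs8, in the other direction, at -2.44. Without each P14.5 library in turn, Fgf12 ranged from 3.27 to 3.35 and Alcam from 2.80 to 2.96, whereas Gm10800 ranged from 1.73 to 3.62 and Adam5 from 0.94 to 2.46.

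Against P3.5, Scara5 was at 5.30 (adjusted p = 0.0066), Nckap5 at 4.34 (adjusted p = 0.00026), Grb10 at 4.24 (adjusted p = 0.00017) and Fgf12 at 3.34 (adjusted p = 0.0018). Kera was at 1.83 and Lpar3 at -2.38, both with an adjusted p of 0.0071.

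Against L3, Apod was at 9.34, Sfrp2 at 8.04, Wif1 at 3.75 and Igfbp3 at 3.70. Fgf12 was at 3.01, Scd2 at 2.98, Adam5 at 1.94, Gm14224 at 1.88, Kera at 1.87 and Rgs8 at -2.80. Of the other 7 time points, P3.5 alone was amplified in the batch of P14.5 and none was sequenced in its lane, so stage cannot be told apart from batch or lane.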

How the results depend on the processing

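The count of 2208 genes called between basal and luminal cells stayed within 1.5 times of that under 15 of 16 alternatives, and genes called higher in basal cells outnumbered the others under all 16. With 1 P14.5 library left out, 807 to 2073 genes were called, 754 to 1482 higher in basal and 53 to 591 higher in luminal cells, the lowest each time without basal replicate 3, and list genes called numbered 99 to 202 in place of 207. Genes called higher in luminal cells numbered 348 with edgeR, 910 with the spread from P3.5 and P14.5 libraries, 233 with that of P14.5 alone and 993 at an FDR of 0.05. With the sort as a replicate block, 2592 genes were called, 2207 of them among the 2208.

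Comparisons with other time points moved more; the cause was not tested. The 14 genes against the other 7 time points became 9 with a pseudocount of 0.1, 8 at a mean of at least 5 CPM, 6 with edgeR, 85 with DESeq2, 37 with the block, 91 without Id2 libraries, 50 at an FDR of 0.05 and 4 to 21 with 1 library left out. The 33 genes against P3.5 became 16, 20, 12, 109, 96, 113 and 130 under the same settings, 295 with P3.5 and P14.5 libraries only and 14 to 31 with 1 library left out. The 120 genes against L3 became 49, 70, 43, 263, 314, 271 and 561, and 48 to 83 with 1 library left out.

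Of 116 named genes, 3 changed sign, all uncalled and at low levels: Itgam (-0.09) was at 0.105 with a pseudocount of 0.1, 0.024 with the block, and from -0.540 to 0.531 with 1 library left out (0.531 without luminal replicate 2, 0.237 without basal replicate 6), Ptprc from -1.578 to 0.312 (without basal replicate 6), and Lef1 from -0.326 (without basal replicate 3) to 1.189. Named genes that lost their call numbered 49 without basal replicate 3, 29 with P14.5 libraries only, 22 without luminal replicate 2, 21 with edgeR, 14 or fewer under each other alternative and 0 with the block. Depth limits the basal libraries most, where 3 reads equal 0.494 and 0.62 CPM.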

Other observations

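In other genes, chosen here after their values were seen, the difference between the cell types also changed from P3.5 to P14.5. Glb1l3, Tmem114 and Izumo1r were read in basal cells of P3.5, at means of 9.48, 4.01 and 3.62 CPM. At P14.5 they had basal means of 0, 0 and 0.103 CPM, with a difference of differences of -3.25, -2.16 and -1.90. Outside basal cells of P3.5, no group mean was above 0.377 CPM for Tmem114 or 0.368 CPM for Izumo1r. Under the authors' filter of 1 CPM in 3 samples, both may be in the table through P3.5 itself, which favours such a fall. Krt73, a keratin of the hair follicle, went from 4.93 to 0 CPM in basal cells (-2.39, adjusted p = 0.000177). Slc7a5, of the transporter list, carries large neutral amino acids. It had basal means of 826 and 202 CPM and luminal means of 173 and 336 CPM. The means changed order (difference of differences -3.01, adjusted p = 0.0011). At P14.5 itself, however, Slc7a5 was not called between the cell types (-0.74 ± 0.37, adjusted p = 0.16).

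In the other direction, Olfml2b, a secreted matrix protein, had basal means of 2.47 and 25.7 CPM and luminal means of 12.4 and 1.16 CPM (5.55, adjusted p = 0.000465). Egflam, the matrix protein pikachurin, had basal means of 5.26 and 30.0 CPM and luminal means of 16.6 and 1.12 CPM (5.43, adjusted p = 0.000302). Itih5, a hyaluronan-binding serum protein relative, had basal means of 34.8 and 225 CPM and luminal means of 132 and 27.3 CPM (4.89, adjusted p = 7.7e-05). The fibroblast marker list, summed, was at 546 CPM in basal cells of P3.5 and 9257 CPM in those of P14.5, and its part in these results was not tested.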
